A study of Mus musculus with 6 samples.

Results

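Bone morphogenetic proteins (BMPs) and growth and differentiation factors (GDFs) were followed here through 10 genes, 6 ligands (*Bmp2*, *Bmp4*, *Bmp6*, *Bmp7*, *Gdf5* and *Gdf10*) and 4 secreted antagonists (*Grem1*, *Nog*, *Chrd* and *Fst*). They were chosen by symbol and make up 10 of the 23159 genes in the count table. Enough reads for a test were found for 9 of them, and *Bmp4* was left untested by the filter on low counts.

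RNA was sequenced from growth plate chondrocytes of Col2-Q mice at postnatal day (P) 49, in 3 independent experiments that each compared label-retaining chondrocytes (LRCs) with non-LRCs. All 6 libraries came from the same genotype, homozygous for *Col2a1-tTA* (labelled as lying at *Peli2*), for *TRE-H2B-GFP* at *Col1a1*, for *Col2a1-creER* and for *R26R-tdTomato*, and all mice received doxycycline from P21 to P49 and tamoxifen at P46 and P47. Doxycycline shuts off H2B-GFP made under the *Col2a1* promoter, so that dividing cells dilute the label, and tamoxifen turns on tdTomato in *Col2a1-creER*-expressing cells. LRCs were sorted as GFP-high tdTomato+ cells (about 10000 per library) and non-LRCs as GFP-mid-low tdTomato+ cells (about 50000 per library), CD45- in both cases, from the distal femur and proximal tibia. Cells of several littermates were pooled in each experiment, so that an experiment, and not a mouse, is the replicate.

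BMP and GDF ligands are secreted dimers that bind type I and type II receptor kinases, and most act through Smad1, Smad5 and Smad9 with Smad4. Antagonists bind the ligands outside the cell and keep them from their receptors. In the growth plate, BMP signaling is known to promote chondrocyte proliferation and hypertrophy, and the resting zone at its top is rich in antagonists.

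The 6 libraries held between 18943789 and 129559872 counts, and 1 count was worth 0.00856 to 0.0478 CPM (TMM-normalized counts per 1000000). All 7 chondrocyte markers, including *Col2a1*, were detected in every library (sum 75201 to 214394 CPM). Of 7 endothelial markers, *Cdh5*, *Kdr* and *Emcn* were at 0 throughout, and the list summed to 1.33 to 5.45 CPM per library. Leukocyte and erythroid markers summed to 7.39 to 23.7 CPM per library, and the 8 osteoblast markers to 972 to 3146 CPM. Most of the osteoblast sum was *Col1a2* (868 to 2950 CPM). Within each experiment *Col1a1* and *Dmp1* were higher in LRCs and *Bglap*, *Bglap2* and *Sp7* lower, and the others were mixed. The LRC library of experiment 2 was the shallowest and stood apart at low levels. Of the genes at 0.5 to 2 CPM in the other LRC libraries, 42.9% (778 of 1815) had 0 or 1 count there, compared with 0.107% to 8.72% by the same measure in the 5 other libraries. At 2 to 5 CPM this share was 19.6%, where the median gene would have given 69.0 counts at its level in the other LRC libraries, and at 5 to 15 CPM it was 5.04%. The members *Bmp4*, *Grem1*, *Fst*, *Nog* and *Chrd*, all with LRC values below 15 CPM, had 0 or 1 count in this library, and their results are given with and without experiment 2.

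**Figure D1:**
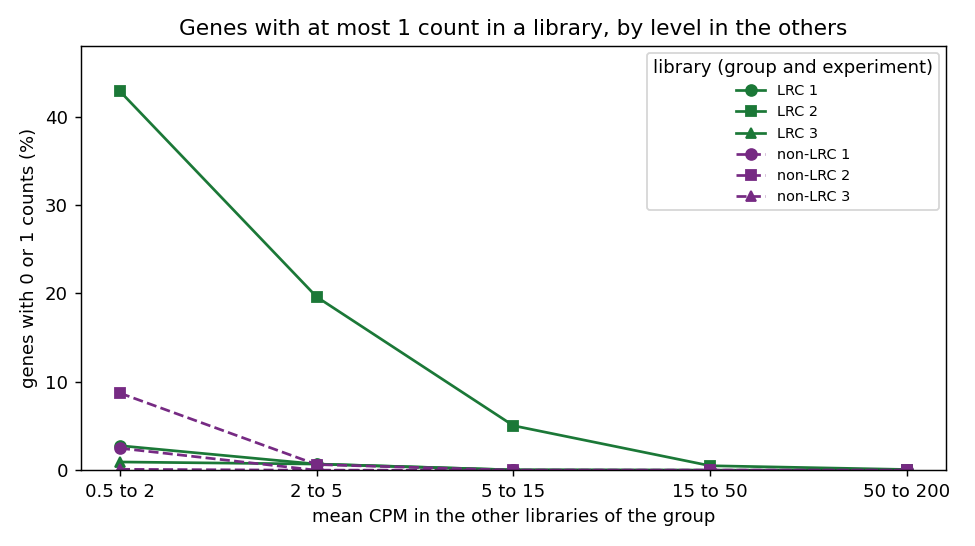
Percentage of genes with 0 or 1 counts in each library (vertical axis), against the mean CPM of the gene in the other libraries of the same group (horizontal axis, 5 ranges). The LRC library of experiment 2 (green squares) starts at 42.9% and falls below 1% from 15 CPM upward, whereas no other library exceeds 8.72%.

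Of the 9 members tested, *Bmp2* and *Gdf5* were called as differentially expressed genes (DEGs), for which the adjusted p had to be below 0.05 and the fold at least 2 in either direction, and both were higher in LRCs. Over all 13728 genes tested, 1.21% were DEGs and 0.874% were DEGs higher in LRCs, by edgeR's quasi-likelihood test with Benjamini-Hochberg adjustment. At an unadjusted p below 0.05 there were 5 members, 3 higher and 2 lower in LRCs, beside 18.4% of all genes tested. The LRC and non-LRC values did not overlap for 3 members that were higher in LRCs (*Bmp2*, *Bmp7* and *Gdf5*) and 1 that was lower (*Nog*), compared with 8.41% and 10.3% of all genes tested. The direction was the same in all 3 experiments for 5 members, 3 higher and 2 lower, compared with 46.4% of all genes. The median log2 fold change of the 9 members was -0.02, beside -0.10 for all genes tested. Within experiments 1, 2 and 3 the members' median was 0.99, -1.08 and 0.997, beside -0.01, -0.16 and -0.0054 for all genes tested. In experiment 2 it was 0.91 for the tested ligands and -5.76 for the antagonists. Each of these antagonists had 0 or 1 count in that LRC library.

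*Bmp2*, a ligand that drives chondrocyte maturation and endochondral bone formation, was expressed in LRCs at 124, 114 and 114 CPM (experiments 1, 2 and 3) and in non-LRCs at 44.1, 53.9 and 38.3 CPM. All LRC libraries lay above all non-LRC libraries, and the LRC values were close together. The means were 118 ± 5.69 CPM for LRCs and 45.4 ± 7.89 CPM for non-LRCs (s.d., *n*=3), and the fitted fold was 2.62 (95% interval 1.97 to 3.47). The log2 fold change was 1.39 (SE 0.17, edgeR adjusted p = 0.0330). In these bulk libraries, a larger share of expressing cells and more RNA per cell cannot be told apart.

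*Gdf5*, known for its role in joint formation, had 43.9, 48.4 and 30.5 CPM in the 3 LRC libraries, against 9.27, 16.9 and 8.55 CPM in non-LRCs. The groups did not overlap, and experiment 2 was the highest in both. Means were 40.9 ± 9.29 and 11.6 ± 4.62 CPM, with a fitted fold of 3.64 (95% interval 2.46 to 5.41) and a log2 fold change of 1.87 (SE 0.23, edgeR adjusted p = 0.0354). This was the member with the largest fold change among the DEGs.

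The calls on *Bmp2* and *Gdf5* depended on the fit. Without the experiment as a block, which left 1 DEG among all genes (0.00728%), their edgeR adjusted p values were 0.111 and 0.176. Without experiment 1 (0.254% of all genes called) they were 0.124 and 0.136. At an unadjusted p below 0.05, edgeR gave 3 of the 9 members without the block, beside 9.39% of all genes, and 5 of the 9 without experiment 1, beside 11.3% of all genes. Over all the alternatives tried, the log2 fold change stayed within 1.31 to 1.54 for *Bmp2* and 1.67 to 2.04 for *Gdf5*.

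Since *Gdf5* is also expressed in joint tissue, markers of superficial articular and synovial cells were read beside it. Of 8 such markers, 7 were tested, and 3 (*Prg4*, *Thbs4* and *Cilp*) were DEGs higher in LRCs, beside 0.874% of all genes tested. The log2 fold change was above 0 for 5 and below 0 for 2 (*Creb5* at -0.04 and *Tppp3* at -0.13). None of the 8 markers was at 0 in every library. Their summed level was 550 to 2127 CPM in LRCs, against 131 to 156 CPM in non-LRCs. In experiments 1, 2 and 3 this sum was 2127, 550 and 2100 CPM in LRCs and 156, 151 and 131 CPM in non-LRCs. Among the LRC libraries it was lowest in experiment 2, where *Gdf5* was highest (48.4 CPM). *Gdf5* was also highest in experiment 2 among the non-LRC libraries (16.9 CPM). Its log2 difference within experiments 1, 2 and 3 was 2.24, 1.52 and 1.83, the smallest in experiment 2. The part of superficial articular and synovial cells in the *Gdf5* result was not tested. Of the 5 resting chondrocyte markers, which the study picked from these libraries in part, 4 were DEGs higher in LRCs, while all 7 prehypertrophic and hypertrophic markers had a log2 fold change below 0, 1 of them (*Panx3*) a DEG.

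*Bmp7*, the most abundant member per kilobase in both groups, had 182, 149 and 176 CPM in LRCs, against 124, 79.2 and 87.6 CPM in non-LRCs. Every LRC library was above every non-LRC library, although non-LRC experiment 1 came close to LRC experiment 2. Means were 169 ± 17.6 and 96.8 ± 23.6 CPM. The fitted fold of 1.77 (95% interval 1.37 to 2.31, log2 0.83, SE 0.15) did not pass the test, with an edgeR adjusted p of 0.0695. The adjusted p was below 0.05 in DESeq2 (0.000142), in limma-voom (0.00910) and in edgeR with at least 10 counts in every library (0.0236). *Bmp7* was not a DEG in any alternative tried, since its fold was below 2 in each.

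**Figure D2:**
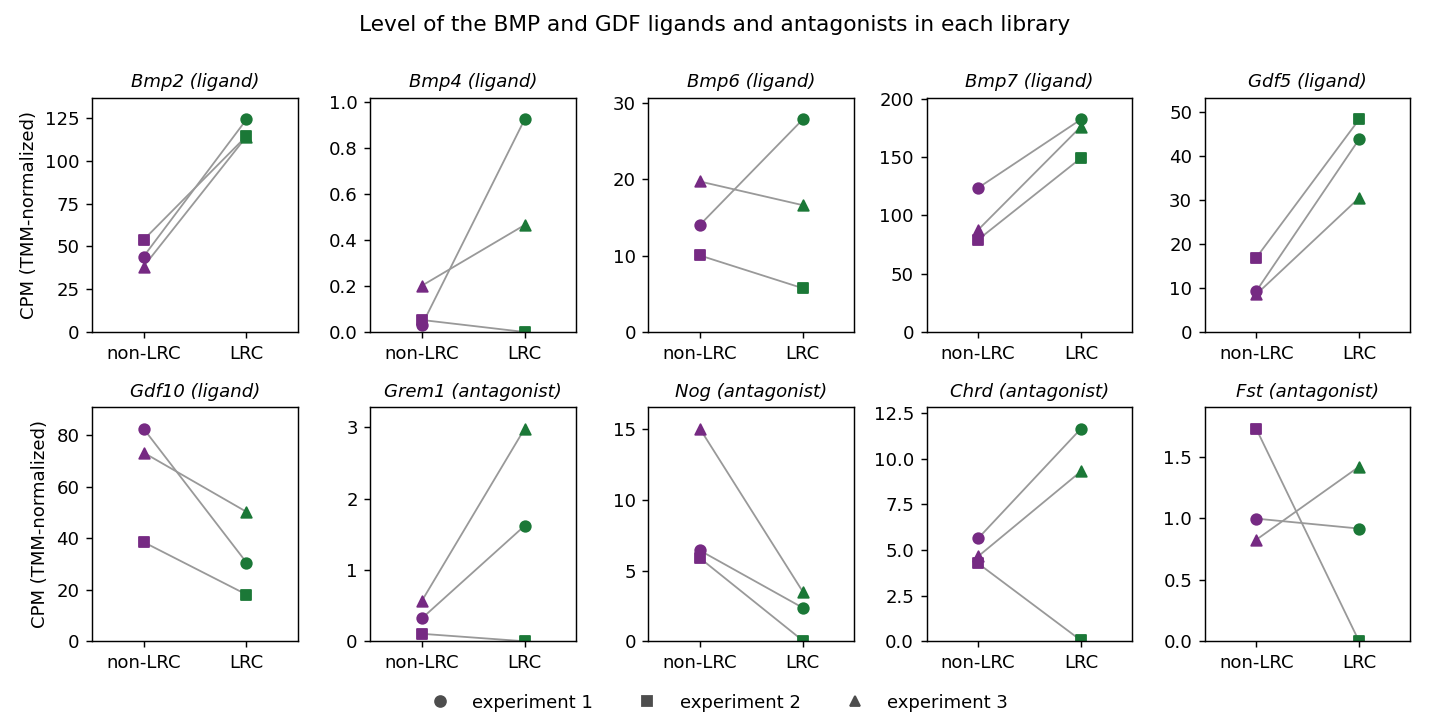
TMM-normalized CPM (vertical axis, a separate scale from 0 for each gene) of the 10 members in non-LRC (purple) and LRC (green) libraries, with lines joining the libraries of 1 experiment. All 3 lines go up for *Bmp2*, *Bmp7* and *Gdf5* and down for *Gdf10* and *Nog*, and LRC experiment 2 (squares) is at or near 0 for *Bmp4*, *Grem1*, *Nog*, *Chrd* and *Fst*.

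*Gdf10*, which encodes the ligand also called BMP3b, went the other way. It had 30.6, 18.2 and 50.3 CPM in LRCs of experiments 1, 2 and 3, and 82.6, 38.5 and 73.3 CPM in non-LRCs. The LRC value was the lower one within each experiment, but the groups overlapped, because non-LRC experiment 2 lay below LRC experiment 3. Means were 33.0 ± 16.2 and 64.8 ± 23.2 CPM. The fitted log2 fold change was -1.02 (SE 0.22, 95% interval -1.56 to -0.48, edgeR adjusted p = 0.0887). The call depended on the tool. *Gdf10* met the DEG rule in DESeq2 with the block (adjusted p = 0.00139), where 5.81% of the 13751 genes given an adjusted p were called. It also did so in limma-voom (adjusted p = 0.0102, 4.52% of genes called) and in edgeR on genes with at least 10 counts in every library (adjusted p = 0.0346, 3.9% called).

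RefSeq promoter windows (250 bases before the start of the gene, GRCm38.p6) were at hand for 5 of the 10 members, and that of *Gdf10* is printed as the ligand with lower values in LRCs. Capitals mark GGCGCC or GGAGCC on either strand, GC-rich letters known to be bound by Smad1 and Smad5. At least 1 of these stood in 31.7% of all 32851 windows of this length (GGCGCC in 9.59%, GGAGCC in 26.0%), and no letter of the printed windows belongs to both motifs. The *Gdf10* window lay outside annotated genes, had a GC content of 78.8% and held 1 GGAGCC. Of the windows not printed, that of *Bmp4* held 1 GGAGCC and that of *Bmp6* held neither motif. The GC content of the 5 windows was 63.2% to 78.8%, and the share over all windows was not matched for GC content.
*Gdf10* promoter, chr14:33923337-33923586, plus strand: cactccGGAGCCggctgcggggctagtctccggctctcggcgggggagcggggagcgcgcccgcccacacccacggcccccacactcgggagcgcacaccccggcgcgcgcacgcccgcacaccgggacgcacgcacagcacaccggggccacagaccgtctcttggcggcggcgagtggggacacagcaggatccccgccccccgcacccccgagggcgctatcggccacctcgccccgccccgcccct

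*Bmp6*, a ligand of the same subgroup as *Bmp7*, had 27.8, 5.74 and 16.6 CPM in LRCs, against 14.0, 10.03 and 19.7 CPM in non-LRCs. The non-LRC range lay within the LRC range, with the LRC library higher in experiment 1 and lower in experiments 2 and 3. Its log2 fold change was -0.02 (95% interval -0.98 to 0.94, edgeR adjusted p = 0.987), an interval that reaches close to a doubling in either direction. *Bmp4*, best known from embryonic patterning, was at low levels, with 108, 0 and 20 counts in LRCs, against 3, 2 and 10 in non-LRCs. This amounted to 0.925, 0 and 0.465 CPM against 0.0290, 0.0524 and 0.201 CPM. The LRC value was the higher one in experiments 1 and 3, and the count of 0 in LRC experiment 2 allows up to 0.143 CPM. Without experiment 2, *Bmp4* passed the filter, with a log2 fold change of 2.98 and an edgeR adjusted p of 0.276. Intervals and limits from counts cover counting error only.

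*Nog* encodes noggin, which binds BMP dimers and covers their receptor-binding surfaces. LRC libraries held 277, 1 and 151 counts of it (experiments 1, 2 and 3) and non-LRC libraries 664, 225 and 748, or 2.37, 0.0478 and 3.51 CPM against 6.43, 5.89 and 15.1 CPM. All LRC libraries lay below all non-LRC libraries, with LRC experiment 2 far below the others. The log2 fold change was -2.80 (SE 0.99, 95% interval -5.21 to -0.38), and it did not pass the test (edgeR adjusted p = 0.215). Without experiment 2, the value was -1.76 with an edgeR adjusted p of 0.0287, and *Nog* was then called together with *Bmp2* and *Gdf5*, among 3.81% of all genes. DESeq2 on all libraries also called *Nog*, at -2.89 (adjusted p = 0.00809), and 4 members in all.

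*Chrd* encodes chordin, an antagonist that is cleaved by Tolloid-type proteases to free its ligand. LRC libraries held 1360, 1 and 400 counts of it and non-LRC libraries 582, 163 and 231, corresponding to 11.6, 0.0478 and 9.31 CPM against 5.63, 4.27 and 4.65 CPM. The LRC library was the higher one in experiments 1 and 3 and the lower one in experiment 2, where its single count has a 95% Poisson interval of 0.00121 to 0.266 CPM. The log2 fold change was -0.35 (SE 1.42, edgeR adjusted p = 0.919) with all libraries and 1.03 (edgeR adjusted p = 0.0662) without experiment 2.

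*Grem1* encodes gremlin 1, an antagonist of BMP2, BMP4 and BMP7 that is also used as a marker of skeletal progenitors. LRC libraries held 189, 0 and 128 counts of it and non-LRC libraries 33, 4 and 28, or 1.62, 0 and 2.98 CPM against 0.319, 0.105 and 0.563 CPM. LRC experiments 1 and 3 lay above every non-LRC library, and LRC experiment 2 lay at 0. Its log2 fold change was 1.31 (SE 1.57, 95% interval -2.51 to 5.14, edgeR adjusted p = 0.705). Without experiment 2 the value was 2.37, with an edgeR adjusted p of 0.0733.

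*Fst* encodes follistatin, which binds activins most tightly and some BMPs. Counts of 107, 0 and 61 in LRCs and 103, 66 and 41 in non-LRCs gave 0.916, 0 and 1.42 CPM against 0.997, 1.73 and 0.825 CPM. Apart from the 0 the groups overlapped. The log2 fold change was -1.08 (SE 1.82, edgeR adjusted p = 0.790), and 0.32 (edgeR adjusted p = 0.824) without experiment 2. For *Bmp4*, *Nog*, *Chrd*, *Grem1* and *Fst*, the part of the many low counts in LRC experiment 2 was not tested.

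**Figure D3:**
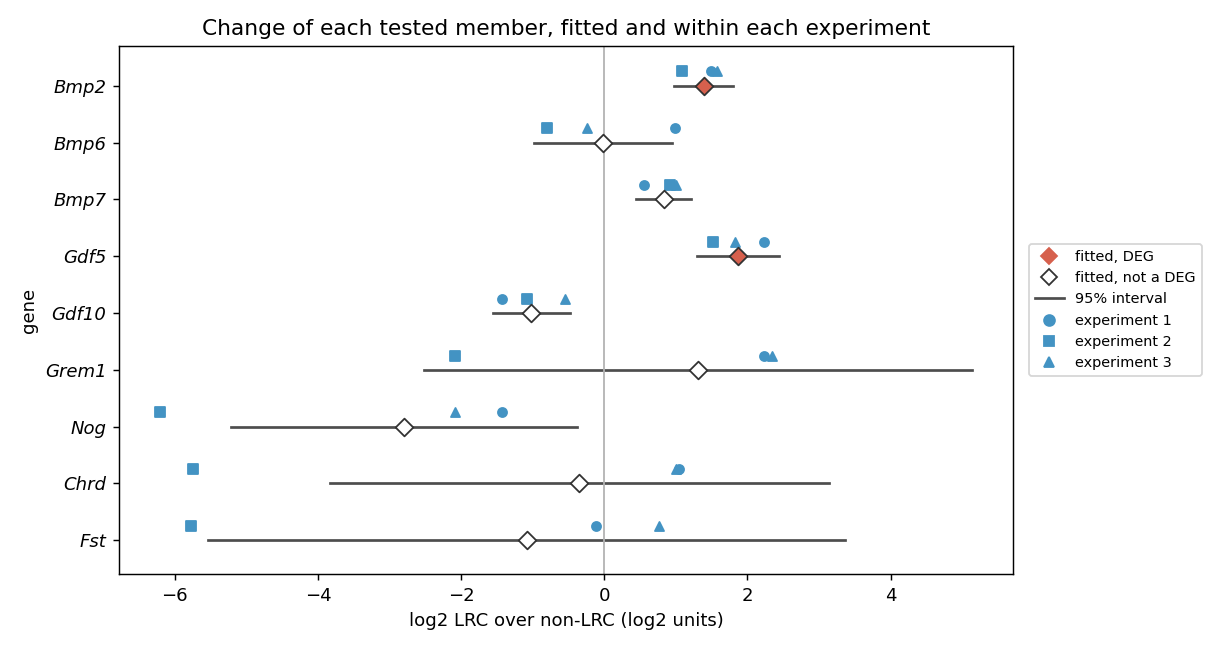
Fitted log2 fold change of the 9 tested members, LRC over non-LRC (diamonds, red for DEGs, with 95% intervals), and the difference within each experiment in log2 CPM with a prior count of 2 (blue symbols). Intervals are narrow for *Bmp2*, *Bmp7*, *Gdf5* and *Gdf10* and wide for the antagonists, where experiment 2 lies far to the left of the other experiments.

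The promoter windows of *Grem1* and *Chrd* are printed as those of the antagonists with higher values in LRCs of experiments 1 and 3, with the same letters in capitals. The *Grem1* window held 1 GGCGCC, and the *Chrd* window 1 of each motif. The *Grem1* window lay outside annotated genes, and that of *Chrd* lay in an intron of *Thpo*, which runs on the other strand.
*Grem1* promoter, chr2:113758649-113758898, minus strand: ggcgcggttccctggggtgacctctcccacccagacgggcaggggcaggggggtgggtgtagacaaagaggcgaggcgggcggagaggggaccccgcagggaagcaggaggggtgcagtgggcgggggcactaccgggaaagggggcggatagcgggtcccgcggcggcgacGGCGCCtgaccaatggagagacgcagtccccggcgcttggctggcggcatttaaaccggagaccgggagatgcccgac
*Chrd* promoter, chr16:20732877-20733126, plus strand: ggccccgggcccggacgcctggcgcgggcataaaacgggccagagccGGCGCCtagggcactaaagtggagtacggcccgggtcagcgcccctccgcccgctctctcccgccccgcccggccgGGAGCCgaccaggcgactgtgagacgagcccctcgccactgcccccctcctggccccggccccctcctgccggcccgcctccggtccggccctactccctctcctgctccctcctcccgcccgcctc

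Levels were compared between genes per kilobase of exon (CPM divided by the exon length in GENCODE vM21). In LRCs the order began with *Bmp7* (42.1 ± 4.39 CPM per kilobase), *Bmp2* (33.1 ± 1.60) and *Gdf5* (17.6 ± 4.003), whose ranges over the 3 libraries did not overlap with their neighbours. Then came *Gdf10* (6.34 ± 3.11), *Bmp6* (4.29 ± 2.83), *Nog* (1.17 ± 1.04), *Chrd* (1.119 ± 0.980), *Grem1*, *Bmp4* and *Fst* (0.369, 0.206 and 0.170), each overlapping with the next. In non-LRCs *Bmp7* led again (24.1 ± 5.87) with no overlap, followed by *Bmp2* (12.8 ± 2.22), *Gdf10* (12.4 ± 4.46), *Nog* (5.38 ± 3.03), *Gdf5* (4.99 ± 1.99) and *Bmp6* (3.74 ± 1.25), where each overlapped with the next up to *Bmp6*. *Chrd* (0.775 ± 0.113), *Fst* (0.258 ± 0.104), *Grem1* (0.0794) and *Bmp4* (0.0419) came last, and of these *Grem1* and *Bmp4* overlapped. *Gdf5* thus had rank 3 in LRCs and rank 5 in non-LRCs, and *Nog* had ranks 6 and 4.

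The 6 ligands summed to 113, 95.1 and 103 CPM per kilobase in LRCs of experiments 1, 2 and 3 and to 66.6, 52.1 and 55.5 in non-LRCs, with means of 104 ± 8.76 and 58.1 ± 7.60. The groups did not overlap. *Bmp7* took 37.8% to 46.2% of this sum in every library, whereas *Bmp2* took 31.0% to 33.8% in LRCs and 18.6% to 29.1% in non-LRCs. *Gdf10* took 3.66% to 9.35% in LRCs and 14.2% to 25.4% in non-LRCs.

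The 4 antagonists summed to far less, 3.85, 0.0358 and 4.59 CPM per kilobase in LRCs and 4.99, 4.56 and 9.94 in non-LRCs. The sum was lower in LRCs within each experiment, but LRC experiment 3 was above non-LRC experiment 2. Its direction did not hold for each antagonist. *Nog* had a mean of 1.17 CPM per kilobase in LRCs and 5.38 in non-LRCs, in mean sums of 2.82 and 6.49, and was lower in LRCs in all 3 experiments. *Chrd* and *Grem1* were higher in LRCs in experiments 1 and 3, and *Fst* in experiment 3. The ligand sum was 29.3, 2655 and 22.5 times the antagonist sum in LRCs, where the value of experiment 2 rests on 2 antagonist counts, and 13.4, 11.4 and 5.58 times in non-LRCs. These ratios cover the 6 ligands and the 4 antagonists alone. Among ligands outside the sum, *Bmp5* had 27.1 ± 6.97 CPM per kilobase in LRCs and 19.5 ± 2.51 in non-LRCs. Its groups overlapped, and it did not pass the test (edgeR adjusted p = 0.331). Other secreted antagonists stood much higher than the 4 in the sum. *Chrdl1* had 38.1 ± 22.9 CPM per kilobase in LRCs and 96.1 ± 49.3 in non-LRCs, and *Nbl1* 70.7 ± 15.4 and 15.1 ± 3.24, against ligand sums of 104 and 58.1. No test was made on these sums over chosen genes.

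**Figure D4:**
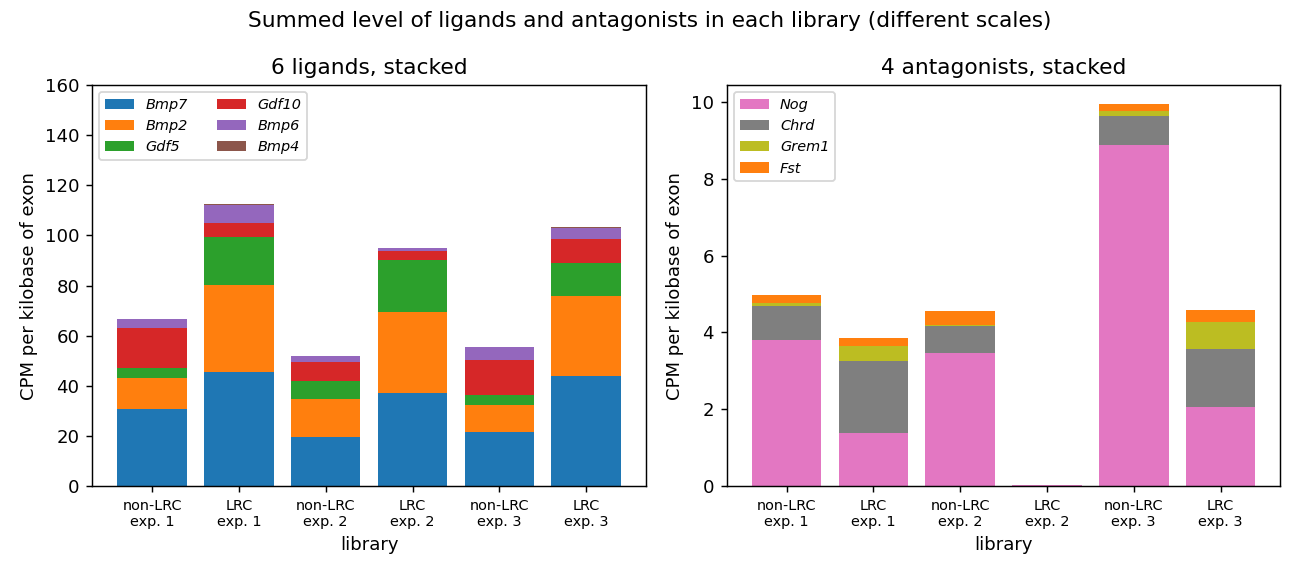
Summed level in CPM per kilobase of exon (vertical axis) of the 6 ligands (left) and the 4 antagonists (right, on a smaller scale) in each library, stacked by gene. Ligand bars reach 95.1 to 113 in LRCs and 52.1 to 66.6 in non-LRCs, and the antagonist bar of LRC experiment 2 is near 0.

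By the root mean square (RMS) difference of centred log2 CPM over the 6 libraries, the genes nearest to *Bmp2* were *Agpat3* (0.0794), *Cyp3a13* (0.165), *Icam1* (0.177), *Ccdc136* and *Glul* (both 0.190). The next member was *Gdf5*, at rank 146 (RMS 0.354). The genes nearest to *Bmp7* were *Plcg2* (0.0862), *Zbtb42* (0.0883), *Fam40a* (0.113), *Ppp2r3a* (0.113) and *Slc19a2* (0.114).

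The other genes of the pathway were read from 4 lists. Of 20 other BMP, GDF and activin-type ligands, 11 were tested, and 1, *Bmp3*, was a DEG higher in LRCs, with 26.7 ± 5.67 CPM against 3.30 ± 0.149 (log2 3.00, SE 0.27, edgeR adjusted p = 0.0176). *Bmp3* encodes an atypical member that counteracts other BMPs. *Inhba*, an activin subunit (log2 0.39, edgeR adjusted p = 0.282), and *Gdf15* (log2 -1.495, edgeR adjusted p = 0.308) came next by p and did not pass.

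Of 21 other secreted antagonists and modulators, 16 were tested, and 2 were DEGs, both higher in LRCs. *Nbl1*, which encodes the DAN-type antagonist, had 144 ± 31.3 CPM in LRCs, against 30.7 ± 6.59 in non-LRCs (log2 2.22, SE 0.15, edgeR adjusted p = 0.0151). *Smoc2*, a matricellular protein, had 882 ± 248 and 293 ± 125 CPM (log2 1.66, SE 0.21, edgeR adjusted p = 0.0363). *Chrdl1*, a chordin-like antagonist with means of 258 and 649 CPM, was next by p, lower in LRCs in all 3 experiments (log2 -1.44), and just missed the call (edgeR adjusted p = 0.0540). *Chrdl1* was called, lower in LRCs, in 7 of the 11 alternatives, among them DESeq2 (adjusted p = 7.59e-08) and limma-voom (adjusted p = 0.000976). *Tll1* (log2 5.02, SE 0.84, edgeR adjusted p = 0.0588) and *Smoc1* (log2 2.28, SE 0.46, edgeR adjusted p = 0.0808) followed by p and did not pass. Both were higher in LRCs in all 3 experiments. *Tll1* was called in 5 of 10 alternatives and *Smoc1* in 5 of 11. At an unadjusted p below 0.05 there were 9 of the 16 genes, 6 higher and 3 lower in LRCs, beside 18.4% of all genes tested. *Bmp3*, *Nbl1* and *Smoc2* were each higher in LRCs in all 3 experiments. None of them was called without the block, and of the 3 *Nbl1* alone was called without experiment 1.

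None of the 12 receptors and co-receptors tested, of 15, and none of the 13 Smads and response genes was a DEG in either direction by edgeR, by DESeq2 or by limma-voom. At an unadjusted p below 0.05, edgeR gave 2 receptors higher in LRCs, and 2 Smads or response genes higher and 1 lower, counts close to the 18.4% of all genes tested. The smallest p values were those of the type I receptor *Acvr1* (log2 0.60, edgeR adjusted p = 0.144), the co-receptor *Rgmb* (0.74, 0.222) and the decoy receptor *Bambi* (0.47, 0.374). Among the response genes they were *Id2* (log2 0.60, edgeR adjusted p = 0.114), the inhibitory Smad *Smad7* (-0.48, 0.209) and the common Smad *Smad4* (0.36, 0.270). Median log2 fold changes were -0.10 for other ligands, 0.48 for other antagonists and modulators, -0.11 for receptors and 0.02 for Smads and response genes, beside -0.10 for all genes.

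**Figure D5:**
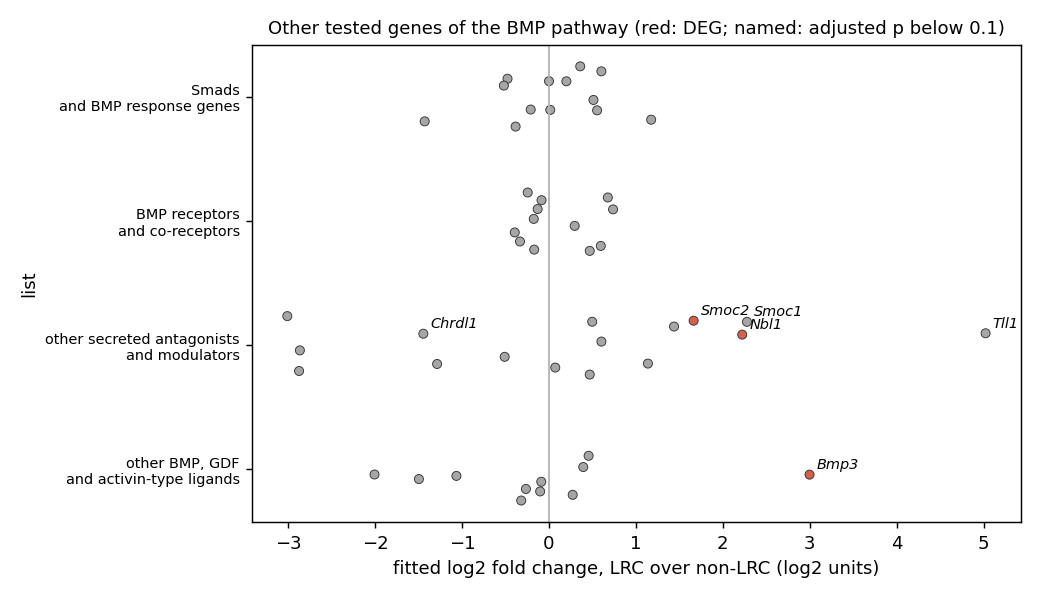
Fitted log2 fold change, LRC over non-LRC (horizontal axis), of the tested genes of the 4 other BMP pathway lists (vertical position within a list has no meaning). The 3 DEGs in red, *Bmp3*, *Nbl1* and *Smoc2*, lie at 3.00, 2.22 and 1.66, and the receptor and Smad lists hold none.

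By GENCODE vM21 on GRCm38, all 10 members are single protein-coding genes. *Bmp2* lies at chr2:133552159-133562885 (plus strand), *Gdf5* at chr2:155941023-155945367 (minus), *Bmp7* at chr2:172868012-172940321 (minus), *Gdf10* at chr14:33923587-33937983 (plus) and *Nog*, a single exon, at chr11:89300638-89302332 (minus). Exons of 5 members share bases with a gene on the opposite strand. For *Gdf5* these are 936 bases (40.3% of its exons), shared with *Gm15557*, a symbol without a row in the count table. For *Bmp6* they are 224 bases (5.74%) shared with *Txndc5*, which had 8225 to 67688 counts per library. For *Bmp4*, *Chrd* and *Fst* the shared part was between 2.51% and 3.96%. As the strand setting of the counting is not given in the sources used here, reads from such a shared stretch cannot be told apart.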

How the data were processed

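The authors sequenced amplified cDNA as single-end reads, aligned them to mm10 (GRCm38) with TopHat2 2.0.13 and Bowtie2 2.2.1, and deposited raw counts of non-ambiguously mapped reads per gene from HTSeq. The annotation and strand setting are not given in the sources used here. The deposited normalized and rlog tables were not used. Samples were grouped and numbered by their labels.

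Tests used edgeR 4.0.16 under R 4.3.3 (filterByExpr at a count of 10 and a total of 15, TMM, quasi-likelihood test, Benjamini-Hochberg adjustment over 13728 genes). The experiment was a block, since the study's methods state a paired analysis, and deviations from the group means correlated within experiments 1, 2 and 3 (Pearson r across genes 0.197, 0.288 and 0.336). Between different experiments r was -0.274 to 0.128, the highest for LRC experiment 1 with non-LRC experiment 3. SEs were the log2 fold change divided by the root of F, and the prior count of log2 CPM was 2. P values measure the spread between 3 experiments of pooled mice. No library was a copy of another (chi-square per gene 177 or more). Alternatives were no block, DESeq2 1.42.0, limma-voom (limma 3.58.1), DESeq2 size factors, other filters, a prior count of 2, each experiment left out, and thinning to the smallest library; for sums, the longest transcript as length and total counts. The edgeR fits with and without the block, DESeq2 and limma-voom were also run on simulated counts, which held no effect of experiment. The other alternatives were not run on simulated counts.

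Named were all members, the other pathway genes with an adjusted p below 0.05 or among the 3 smallest p of their list, and the 5 profiles nearest to the member with the smallest p and to the most abundant one. *Tll1* and *Smoc1* were named in addition as the next by p in their list, and *Bmp5* for its level. The members and lists were chosen with earlier results of these data known.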

Additional observations from a re-analysis of the deposited data

How the results depend on the processing

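The number of members called as DEGs was 2, and became 0 without the replicate block and 4 in DESeq2. Leaving out 1 experiment gave 0 to 3, with 0 without experiment 1 and 3 without experiment 2. The number of all genes called, 166, became 1 without the block, 799 in DESeq2, 621 in limma-voom, 434 with at least 10 counts in every library, and 35 (without experiment 1) to 555 (without experiment 2). The number of other pathway genes called, 3, became 0 without the block, 7 in DESeq2, 6 in limma-voom, 5 with at least 10 counts in every library, with no filter or after thinning, and 2 to 6 when 1 experiment was left out, with 2 without experiment 1 and 6 without experiment 2.

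Among single members, *Bmp6* changed sign without the block (log2 0.20), in limma-voom (0.41) and with experiments left out (-0.53 to 0.38). *Chrd* did so without the block (0.54), in limma-voom (0.87) and with experiments left out (-2.02 to 1.03), and *Fst* with experiments left out (-2.998 to 0.32). The median over the members ranged from -0.53 to 0.90 as the fit and the genes that passed its filter changed. The mean log2 ratio of the ligand sum, 0.84, stayed within 0.81 to 0.88, and that of the antagonist sum, -2.83, lay between -4.05 and -0.74, the last without experiment 2. *Bmp2*, *Bmp7*, *Gdf5*, *Gdf10*, *Grem1* and *Nog* kept their direction in every alternative that gave them a value. The low counts in 1 LRC library limit what can be read for members below 15 CPM in LRCs.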
